A study of Mus musculus with 16 samples.

Results

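Scart2+ γδT17 cells of the mouse liver were selected on RNA: cells of the liver γδ T cell sort with at least 1 UMI (unique molecular identifier, 1 counted RNA molecule) of 5830411N06Rik, the gene of the scavenger receptor Scart2, and no UMI of Cd163l1 (Scart1), Trdv4, Tcrg-V6 or Mki67. Of 17568 liver cells carrying a sample hashtag, 1888 met this rule, in a series of 53595 cells over 8 sequenced units. The members numbered 46 at D0, 309 at D5, 430 at D9, 762 at D19, 165 in STOP and 176 in D5-DT.

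All cells came from male young adult mice and were sorted alive as CD45+, CD3e+, TCRβ- and TCRγδ+. D0 was the liver before diet, and D5, D9 and D19 were taken after 5, 9 and 19 days on chow with 0.1% DDC, an agent that causes cholestatic injury around the bile ducts. In STOP the diet was withdrawn after 18 days and the mice recovered for 7 days. These 5 arms were C57BL/6J. D5-DT came from Mgl2-DTR mice, in which the promoter of Mgl2, a lectin of a dendritic cell subset and of some macrophages, drives the diphtheria toxin receptor; they received toxin at day -1 and day 2 and DDC for 5 days. D0, D5 and D9 shared 1 pool, D19 and STOP another, and D5-DT was pooled with its lymph node cells, so that genotype, toxin and pool cannot be told apart in D5-DT. Between D0, D5 or D9 and D19 or STOP, time and pool cannot be told apart either, and levels of all 6 arms are given side by side with that limit. Each condition was 1 hashtag arm whose number of mice is not given, and arms were therefore compared without p-values, with exact 95% intervals that cover counting error only.

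γδT17 cells are innate-like T cells that leave the thymus ready to make IL-17A, under transcription factors such as c-Maf and Sox13. Scart2 marks the mostly Vγ4+ population that recirculates through lymph nodes and skin, whereas Scart1 marks Vγ6+ cells that settle in tissues. IL-17 acts on epithelium, in the liver on bile duct cells among others, and calls in neutrophils.

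The sequences that assigned the cells to their arms come first; each was the 15-base barcode of 1 hashtag antibody, and Hash3 and Hash4 were used in more than 1 pool.
Hash3 (D0, D19 and the liver of D5-DT): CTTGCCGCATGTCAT
Hash4 (D5 and STOP): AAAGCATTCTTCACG
Hash5 (D9): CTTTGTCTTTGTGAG

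The 250 bases before an annotated start are shown for the gene that defined the cells and for the 2 cytokine genes on which the results turn (RefSeq, GRCm38.p6). Capitals mark AGGTCA or its reverse complement TGACCT, core letters that many nuclear receptors bind, searched on both strands.
5830411N06Rik, chr7:140247051-140247300, + strand: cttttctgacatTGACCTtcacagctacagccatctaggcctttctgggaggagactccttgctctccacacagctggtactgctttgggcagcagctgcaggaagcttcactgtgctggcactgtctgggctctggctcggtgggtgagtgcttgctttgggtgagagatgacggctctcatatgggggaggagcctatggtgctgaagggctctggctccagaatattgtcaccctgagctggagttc
Il17a, chr1:20730655-20730904, + strand: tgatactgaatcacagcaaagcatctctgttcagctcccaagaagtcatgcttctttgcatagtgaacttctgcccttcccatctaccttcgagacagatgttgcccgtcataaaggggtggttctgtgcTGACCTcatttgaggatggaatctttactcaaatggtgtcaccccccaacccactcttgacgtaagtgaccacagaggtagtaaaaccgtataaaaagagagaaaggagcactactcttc
Il17f, chr1:20784271-20784520, - strand: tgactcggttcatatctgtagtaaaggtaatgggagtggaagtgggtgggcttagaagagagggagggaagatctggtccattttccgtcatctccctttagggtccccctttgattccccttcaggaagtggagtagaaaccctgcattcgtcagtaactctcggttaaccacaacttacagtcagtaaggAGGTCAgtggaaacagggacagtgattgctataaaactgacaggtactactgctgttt

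Each window shown held the letters once, beginning 238 bases before the start in 5830411N06Rik, 120 in Il17a and 58 in Il17f. For 5830411N06Rik this was the most upstream of the 3 starts in the promoter table, although the gene's annotated range begins inside the window, and the 250 bases before the 2 others held none. For Il17f the whole window lies inside the gene's annotated range (chr1:20777146-20785274, - strand), which begins farther upstream than the start in the promoter table, so these letters do not lie upstream of the gene as annotated. The windows searched for Cd163l1, Klf2 and Il22 also held none, of which those of Cd163l1 and Il22 lie inside the genes' annotated ranges, and of the 2 starts of Ccr6 1 did. They occurred in 14.0% of 32851 windows of this length, so a match is a description of these letters and not a binding site. Il17a and Il17f are neighbours on chromosome 1. 5830411N06Rik (chr7:140247279-140300734) and Cd163l1 (chr7:140197218-140231145) are neighbouring paralogs, whose reads could be split by counting.

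The members made up 6.60% of the hashtagged liver cells at D0, 7.87% at D5, 16.4% at D9, 11.5% at D19, 10.1% in STOP and 8.65% in D5-DT. The exact interval at D9, 15.0% to 17.9%, lay above those of the 5 other arms. The share depends on depth, because a cell needs a single UMI to enter: when every cell was thinned to 1000 UMIs before the rule was applied, it was 3.16% at D0, 4.91% at D5, 8.81% at D9, 8.03% at D19, 7.29% in STOP and 6.00% in D5-DT. The members had median depths of 4831, 4431 and 4702 UMIs at D0, D5 and D9, 2425 at D19, 3027 in STOP and 3211 in D5-DT. In D5-DT 35.8% of the members had fewer than 2000 UMIs, against 22.6% at D19 and 2.33% to 6.47% in the other arms. No cell barcode was shared between members of different pools. Cells with a Cd163l1 UMI and no 5830411N06Rik or Mki67 UMI, the Scart1 gate used below, also rose from D5 to D9. They were 22.1% of hashtagged liver cells at D0, 25.7% at D5, 51.5% at D9, 46.9% at D19, 61.2% in STOP and 28.9% in D5-DT. Members were 23.0%, 23.4% and 24.1% of the cells of both gates at D0, D5 and D9. They were 19.6% at D19, 14.2% in STOP and 23.0% in D5-DT.

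The label was checked against genes that the rule did not use. Ccr6, the receptor of CCL20 and a marker of γδT17 cells, stood at 173, 166, 180, 110, 114 and 91.4 CPM (UMIs of the gene per 1e6 UMIs summed over the members of an arm) in members at D0, D5, D9, D19, STOP and D5-DT. In cells of a mirrored Scart1 gate (at least 1 Cd163l1 UMI, no 5830411N06Rik or Mki67 UMI, 7227 cells) Ccr6 was 40.8, 65.8, 88.5, 38.9, 62.1 and 67.8 CPM, lower in every arm, with intervals that overlapped in D5-DT. Naive-like γδ cells of the same livers (299 cells with a UMI of both Lef1 and Ccr7, none of the genes of the rule and none of 1 further γδT17 gene) held no Ccr6 UMI in 5 arms and 5.9 CPM at D19. Tcrg-V4, the Vγ4 gene segment, ranged from 43.2 to 63.6 CPM in members and from 5.9 to 17.1 CPM in Scart1 cells, so that it separated these. In naive-like cells it ranged from 9.2 to 61.4 CPM, a range that overlapped that of members. The 61.4 CPM rested on 3 UMIs in the 12 naive-like cells of STOP. Tcrg-V4 was thus not shown to separate members from naive-like cells. Blk, the kinase that γδT17 cells require, ran from 165 to 327 CPM and Maf from 432 to 748 CPM in members, whereas in naive-like cells Blk did not exceed 40.9 CPM and Maf did not exceed 73.2 CPM. The defining genes of γδT17 cells were thus present in all 6 arms.

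**Figure D1:**
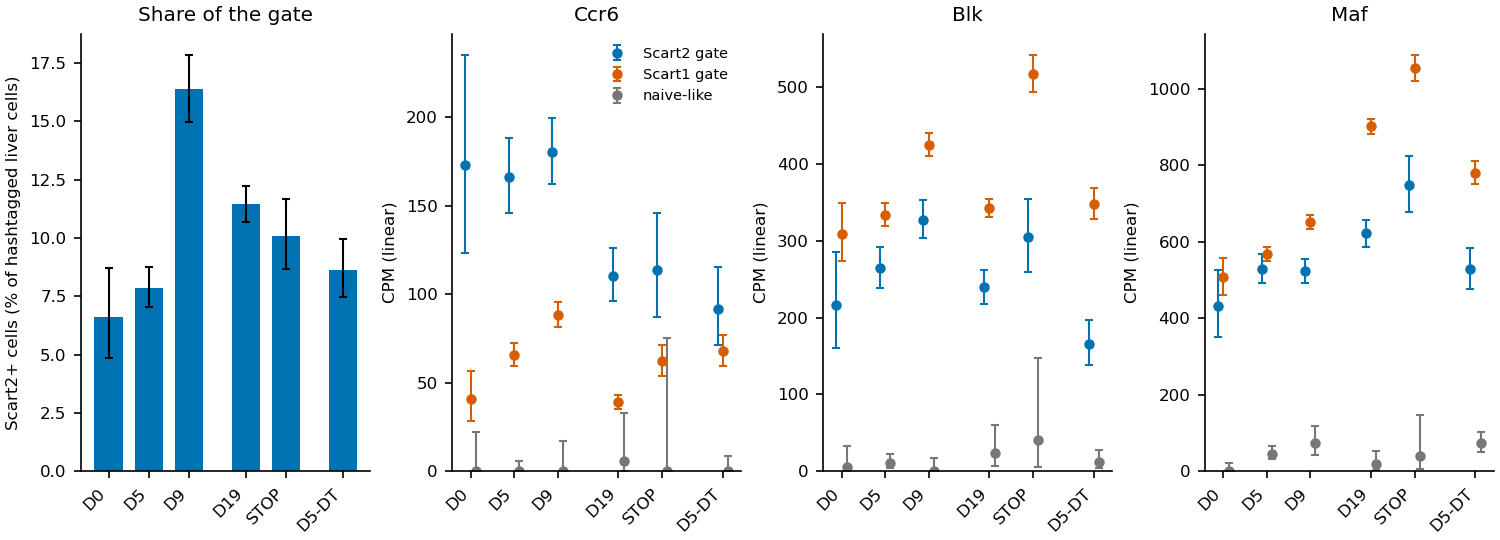
Share of hashtagged liver cells inside the Scart2 gate (bars, percent, with exact 95% binomial intervals) and levels of Ccr6, Blk and Maf (CPM, linear, with exact 95% Poisson intervals) in Scart2, Scart1 and naive-like cells of the 6 liver arms. The share peaked at 16.4% at D9, where the share of the Scart1 gate also rose, from 25.7% at D5 to 51.5%. Ccr6 was higher in Scart2 than in Scart1 cells in every arm, whereas Blk and Maf were lower in Scart2 cells. Intervals overlapped in D5-DT for Ccr6, at D0 for Blk and at D0 and D5 for Maf.

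The members lay close to a threshold of 1 UMI. Between 27.0% (D9) and 45.8% (D19) of them held exactly 1 UMI of 5830411N06Rik, and the gene reached 67.8 to 101 CPM in the free RNA of near-empty droplets. Cells just outside the rule, with 0 UMIs of it and none of the 4 excluded genes, had from 8.9 CPM of Blk at D0 to 92.1 in STOP, against 106 CPM (D5-DT) to 359 CPM (D9) in members with exactly 1 UMI. As a ratio the separation was narrowest in STOP, at 92.1 CPM outside and 281 in members with 1 UMI, and in D5-DT the values were 11.5 and 106 CPM. Tcrg-V4 separated these cells less. It ran from 30.7 CPM (D0) to 50.3 CPM (STOP) outside and from 31.7 CPM (D0) to 61.9 CPM (D19) in members with 1 UMI. In D5-DT it was 42.3 CPM outside and 36.4 in members with 1 UMI. Nkg7, a gene of cytotoxic granules, ran from 554 CPM (D19) to 1371 CPM (D5) in the cells just outside and from 64.3 CPM (D9) to 589 CPM (D5-DT) in members with 1 UMI, with values of 985 and 589 CPM in D5-DT. Free RNA could account for at most 4.05% of the members' UMIs at D9 and for at most 17.8% to 23.2% in the other arms, a limit set by taking all UMIs of the 12 listed cytotoxic genes as free RNA. Members with a UMI of a macrophage gene (Csf1r, Cd68, C1qa or Clec4f) were 10.8% in D5-DT and at most 2.17% elsewhere.

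Il17a encodes the lead cytokine of these cells. Its level before diet rested on 10 UMIs and was 43.2 CPM (interval 20.7 to 79.4), and it was 884 CPM at D5, 2205 at D9, 1056 at D19, 1503 in STOP and 445 in D5-DT. In naive-like cells it ranged from 0 to 35.4 CPM, below the interval of every arm but D0. The D0 level lay under the 580 CPM of the pool's free RNA, and none of the intervals of the 6 arms overlapped. Scart1 cells held 717, 1023, 2510, 2512, 3242 and 880 CPM in the same order, so that they carried Il17a before diet. From D0 to D5 Il17a in the members changed by 4.07 on the scale of log2(CPM + 10), which understates low genes, with an interval of 3.47 to 5.42 for the plain log2 ratio. The same step in Scart1 cells was 0.51, and this difference between the gates was not tested. From D5 to D9 the change was 1.31 in members and 1.29 in Scart1 cells.

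The share of members with an Il17a UMI was likewise highest at D9 and lowest at D0 after thinning. After thinning to 1000 UMIs it was 2.17% at D0, 31.4% at D5, 37.4% at D9, 25.1% at D19, 34.5% in STOP and 16.5% in D5-DT, and without thinning it was 13.0%, 47.2%, 53.7%, 35.4%, 55.2% and 26.7%. Naive-like cells, whose median depths were 3508 to 6508 UMIs, reached 0% to 8.89% thinned and 0% to 11.1% unthinned, so that the thinned D0 share of members lay inside the range of cells that should lack the transcript and the unthinned one just above it. The UMIs were concentrated in few cells: the 43 members with the most Il17a held 61.3% of its UMIs at D9, and the top 77 members at D19 held 81.2%. The D0 value rested on 46 cells, and when the rule was applied after thinning the change from D0 to D5 was 0.28, over 22 cells at D0 and 193 at D5, of which 9.09% and 21.2% had carried a UMI of an excluded gene (Cd163l1, Trdv4 or Tcrg-V6) before thinning.

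Il17f, the paralog that pairs with IL-17A in a heterodimer, rose with Il17a from D0 to D9 but had its maximum in another arm. It was 17.3 CPM at D0, 79.0 at D5, 167 at D9, 284 at D19, 163 in STOP and 96.7 in D5-DT. Its maximum was at D19, where Il17a lay below its D9 level, and between D9 and D19 time and pool cannot be told apart. In Scart1 cells it was 16.3, 21.1, 23.6, 91.9, 73.7 and 26.0 CPM. After thinning, 17.4% of members with an Il17a UMI at D9 also held an Il17f UMI, against 3.35% of those without, and in Scart1 cells the 2 shares were 2.67% and 0.78%.

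Il22, Areg, Ifng and Tnf were sparse, but they were not the rest of the list. The 14 listed T17 cytokine genes summed to 1037 CPM at D0 and 2156 CPM at D5. Most of the D0 sum lay in genes whose levels are not given here. Il22, which acts on epithelial cells, was at 0 at D0, 4.8 CPM at D5, 27.1 at D9, 6.2 at D19, 3.7 in STOP and 0 in D5-DT, and only the D9 interval rose clear of D5. Areg, the EGF receptor ligand amphiregulin, was 13.0 CPM at D0, 121 at D5, 75.6 at D9, 32.6 at D19, 33.0 in STOP and 50.3 in D5-DT. It was highest at D5, while in Scart1 cells it lay between 165 and 362 CPM in all arms. Ifng stayed between 13.0 and 31.0 CPM and Tnf between 18.5 and 71.5 CPM. No UMI of Il10 or Il21 was found in any of the 1888 members.

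**Figure D2:**
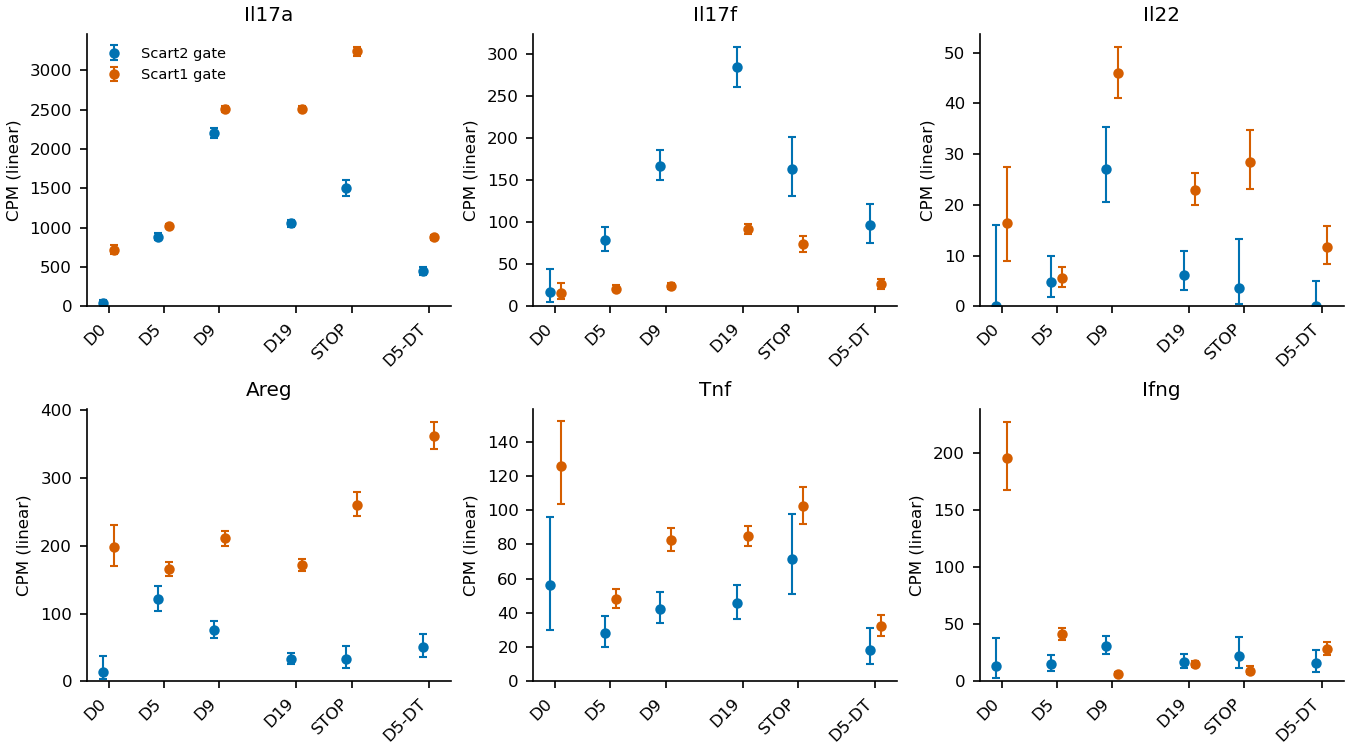
Levels of Il17a, Il17f, Il22, Areg, Tnf and Ifng (CPM, linear, exact 95% Poisson intervals) by liver arm in Scart2 and Scart1 cells; each point is 1 hashtag arm. Il17a of Scart2 cells rose from 43.2 CPM at D0 to 2205 CPM at D9, and Il17f was above the Scart1 level by more than the intervals in every arm but D0.

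Between D0 and D5, 333 of 6926 genes with at least 20 UMIs over both arms were at least 2-fold higher (4.81%) and 115 at least 2-fold lower (1.66%), and changes were read against this background and the small D0 arm. Of 9 measured T17 cytokine genes, 3 were 2-fold higher (Il17a, Il17f and Areg) and none lower, with a median of 0.50 against 0.04 over all genes. Ltb4r1, the receptor of the neutrophil attractant leukotriene B4, went from 30.2 to 117 CPM and the inhibitory receptor Pdcd1 from 13.0 to 66.0 CPM. The D0 level of Pdcd1 rested on 3 counts.

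Genes induced by interferon moved the other way. Of 14 measured, 6 were at least 2-fold lower and none higher, with a median of -0.92. Isg15, an ubiquitin-like interferon product, fell from 77.8 to 21.1 CPM and Ly6a from 242 to 91.2 CPM. The drop was smaller under a stricter rule: among members with at least 2 UMIs of the Scart2 gene, the median was -0.16 over 11 measured genes, 4 of them lower and 1 higher. Ly6c2, 1 of the 6 lower genes, turned direction there and changed by 1.47, as it did after thinning (1.08) and in members with a UMI of Ccr6, Tcrg-V4 or a further γδT17 marker (1.47).

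TGF-β response genes lay mostly above 0. Of 9 measured, 8 were higher at D5 by any amount, with a median of 0.68 against 0.04 over all genes. Only 1 passed 2-fold: Pmepa1, a feedback inhibitor of the pathway, went from 13.0 CPM (3 counts) to 53.8 CPM. Of 12 measured genes of lymph node entry and tissue egress, 3 were 2-fold lower and 1 higher. Ccr7, the receptor that guides T cells into lymph nodes, was 86.4 CPM at D0 and 35.4 at D5, and Klf3 was 285 and 96.7, whereas S1pr4 went up from 47.5 to 146 CPM. Of 5 measured markers of naive γδ cells 4 were lower (median -1.12), a list that shares Ccr7 and other genes with the egress list. With at least 2 UMIs of the Scart2 gene 1 of 5 was lower (median -0.52) and Igfbp4 changed by 0.27, and in members with a UMI of Ccr6, Tcrg-V4 or a further γδT17 marker 1 of 4 was lower (median -0.10) and Ccr9 changed by 0.27. The summed level of that list was 436 CPM at D0 and 189 CPM at D5, against 145 CPM in the pool's free RNA; the part of naive-like cells inside the gate was not tested.

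Among genes found in at least 10% of the members of the higher arm, the largest rises from D0 to D5 after Il17a were 1500009L16Rik (4.3 to 85.8 CPM), Spock2, a secreted proteoglycan gene (4.3 to 78.3 CPM) and Cd74, the invariant chain (13.0 to 98.7 CPM). The D0 levels of these genes were at or below the 13.0 CPM that 3 counts give there, so the sizes of the rises are uncertain. Glcci1 and Zfp397 had no UMI at D0 and 33.4 CPM each at D5, at least 2.57-fold higher against a floor of 3 counts. The largest falls were Dpp4, the surface peptidase CD26 (47.5 to 6.1 CPM), and Fam83a (51.8 to 7.5 CPM). The heat shock genes Hspa1a and Hspa1b, near-identical copies whose counts are uncertain, fell from 251 to 70.8 and from 406 to 136 CPM. Epcam rose in the sum from 4.3 to 103 CPM, but 145 of its 152 UMIs at D5 and all 33 UMIs of Krt19 lay in 1 cell each. Of 10 measured cytotoxic genes 3 were 2-fold higher at D5 and 0 lower, with a median of 0.71. Of 6 listed B cell markers 1 was measured, Cd79b, which changed by 1.34. The part of such cells in these changes was not tested.

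**Figure D3:**
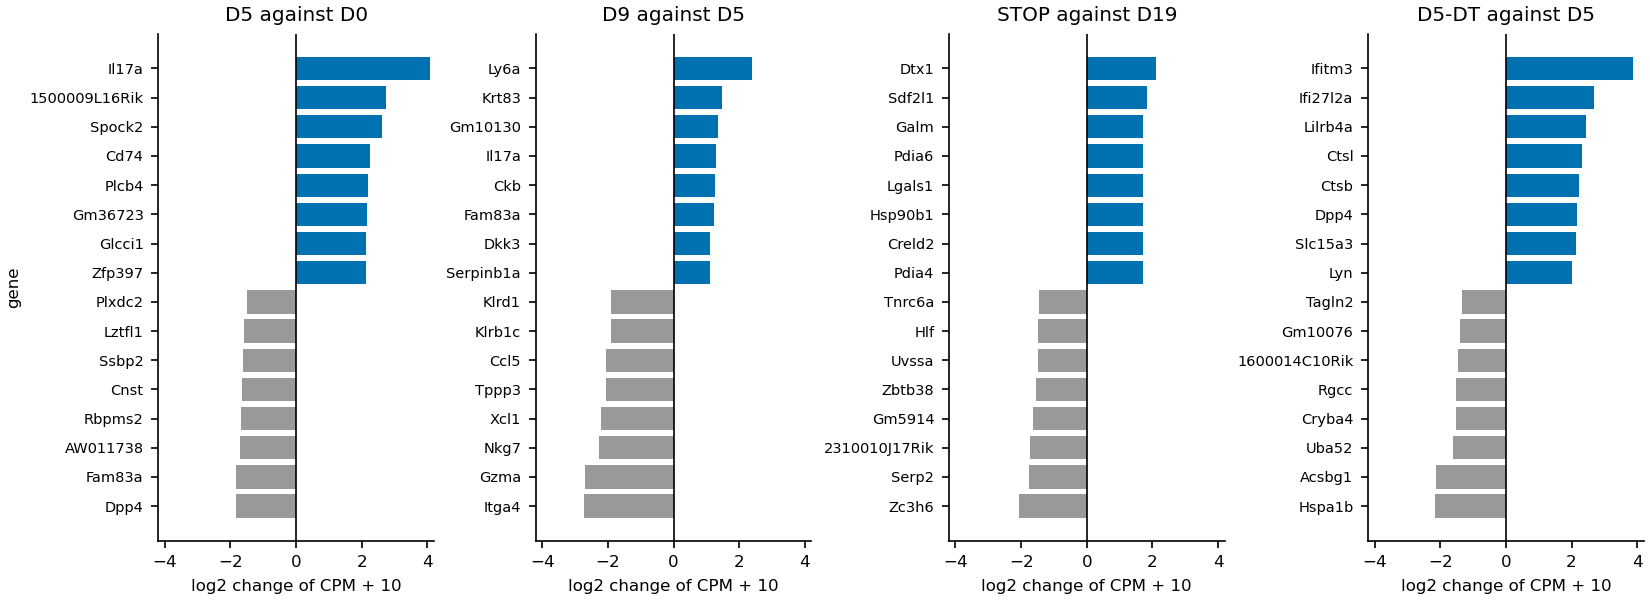
Changes in log2(CPM + 10) of Scart2 cells in each of the 4 comparisons between arms, for the 8 genes that rose most and the 8 that fell most among those found in at least 10% of the higher arm's members. Il17a led the rises from D0 to D5 (4.07), Itga4 led the falls from D5 to D9 (-2.72), Dtx1 led STOP against D19 (2.10) and Ifitm3 led D5-DT against D5 (3.88). In D5-DT 10.8% of members held a macrophage UMI, against at most 2.17% in the other arms.

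From D5 to D9 18 of 8570 genes were at least 2-fold higher (0.21%) and 97 at least 2-fold lower (1.13%). The counts were 33 higher and 53 lower when the rule was applied after thinning, and 21 and 58 without members that held a macrophage UMI. Of 10 measured T17 cytokine genes 2 rose past 2-fold, Il17a and Il22, and Il17f came to 0.99. Identity genes held their level, with none of 12 past 2-fold and a median of 0.01. The largest rise among genes found in at least 10% of members was Ly6a, the surface protein Sca-1, which had been 242 CPM at D0 and 91.2 at D5 and stood at 517 at D9. In Scart1 cells Ly6a was 91.1 CPM at D5 and 123 at D9. Serpinb1a, an inhibitor of neutrophil proteases, went from 238 to 523 CPM and Krt83, a keratin gene, from 53.1 to 166 CPM.

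Itga4, the α4 integrin chain that carries T cells to inflamed endothelium, fell from 168 CPM at D5 to 16.97 at D9, the largest fall by the same rule, and was 31.0 at D19, 66.0 in STOP and 226 in D5-DT. Ccr7 went on falling, from 35.4 to 9.7 CPM, as did Cd28, from 35.4 to 5.8 CPM. The metabolic genes Fabp5, a fatty acid carrier, and Acsbg1, an acyl-CoA ligase, fell from 80.3 to 30.5 and from 252 to 92.6 CPM. In Scart1 cells Itga4 changed by -1.98, Acsbg1 by -0.23 and Fabp5 by 0.57.

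Genes of cytotoxic lymphocytes fell together in this step. Of 11 measured, 9 were at least 2-fold lower at D9 and none higher, with a median of -1.90: Gzma went from 308 to 38.8 CPM, Nkg7 from 227 to 39.3, and the chemokine Ccl5 from 1067 to 247. The summed level of the 12 listed genes was 2091 CPM at D0, 2104 at D5, 439 at D9, 851 at D19, 1111 in STOP and 2995 in D5-DT, and it was 10848 CPM in the free RNA of the D0, D5 and D9 pool. Members with a Ccr6 UMI held less Nkg7 than members without in all 6 arms (mean log2 difference -0.96, SD 0.50; exact two-sided sign-flip permutation test over 6 arms, p = 0.031, the smallest it allows, 0.0977 after adjustment over 25 such splits, so it did not pass). The split by Tcrg-V4 went the other way in 4 of 6 arms (mean log2 difference 0.36, SD 0.79, exact p = 0.344, 0.477 after adjustment), with 371 CPM of Nkg7 in members with a UMI and 180 CPM without at D5. The part of cytotoxic γδ cells with a stray Scart2 UMI was not tested.

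STOP and D19 were compared within their pool. After 7 days of recovery 94 of 7968 genes were at least 2-fold higher (1.18%) and 121 at least 2-fold lower (1.52%). No T17 cytokine gene of 10 measured passed: Il17a stood at 1056 CPM at D19 and 1503 in STOP, a change of 0.51, and Il17f at 284 and 163 CPM, a change of -0.76. Of the 10 genes 9 lay above 0 and 1, Il17f, below, with a median of 0.38 against -0.05 over all genes. The rise of Il17a was not seen in every selection: it was 0.028 in cells of at least 3000 UMIs and -0.073 in members with a UMI of Ccr6, Tcrg-V4 or a further γδT17 marker. Dtx1, a gene of the Notch pathway, showed the largest rise by the same rule, from 25.4 to 141 CPM, and Ccr10 and Cd5 rose from 8.3 to 40.3 and from 12.4 to 42.2 CPM.

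In STOP against D19, of 12 heat shock and chaperone genes 6 were at least 2-fold higher and none lower, with all 12 above 0 and a median of 0.89 against -0.05 over all genes. In cells of at least 3000 UMIs 4 of the 12 passed 2-fold, and Hspa1a, 1 of the 6, turned to -0.33. Hspa5, the main chaperone of the endoplasmic reticulum, was 474 CPM at D19 and 1269 in STOP. Hsp90b1, a chaperone of the same list, was 260 and 876 CPM. Among the 8 largest rises stood Pdia6 (87.5 and 312 CPM), Sdf2l1 (38.3 and 163) and Pdia4 (46.1 and 172), which were in no list. Scart1 cells moved likewise, by 1.35 for Hspa5 and 1.96 for Hsp90b1.

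Of 10 genes of cold shock and quiescence, 4 were 2-fold lower and none higher in STOP, with a median of -0.81. The cold-inducible RNA-binding genes Cirbp and Rbm3 went from 480 to 181 and from 1038 to 409 CPM, and Klf9 and Pik3ip1 from 190 to 78.8 and from 96.3 to 34.8 CPM. Of 9 measured survival genes 3 were 2-fold lower: Bcl2 went from 404 to 163 CPM, and its antagonists Bcl2l11 and Bbc3 from 74.0 to 29.3 and from 55.4 to 20.2 CPM. Ccr7 rose from 13.5 to 38.5 CPM.

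**Figure D4:**
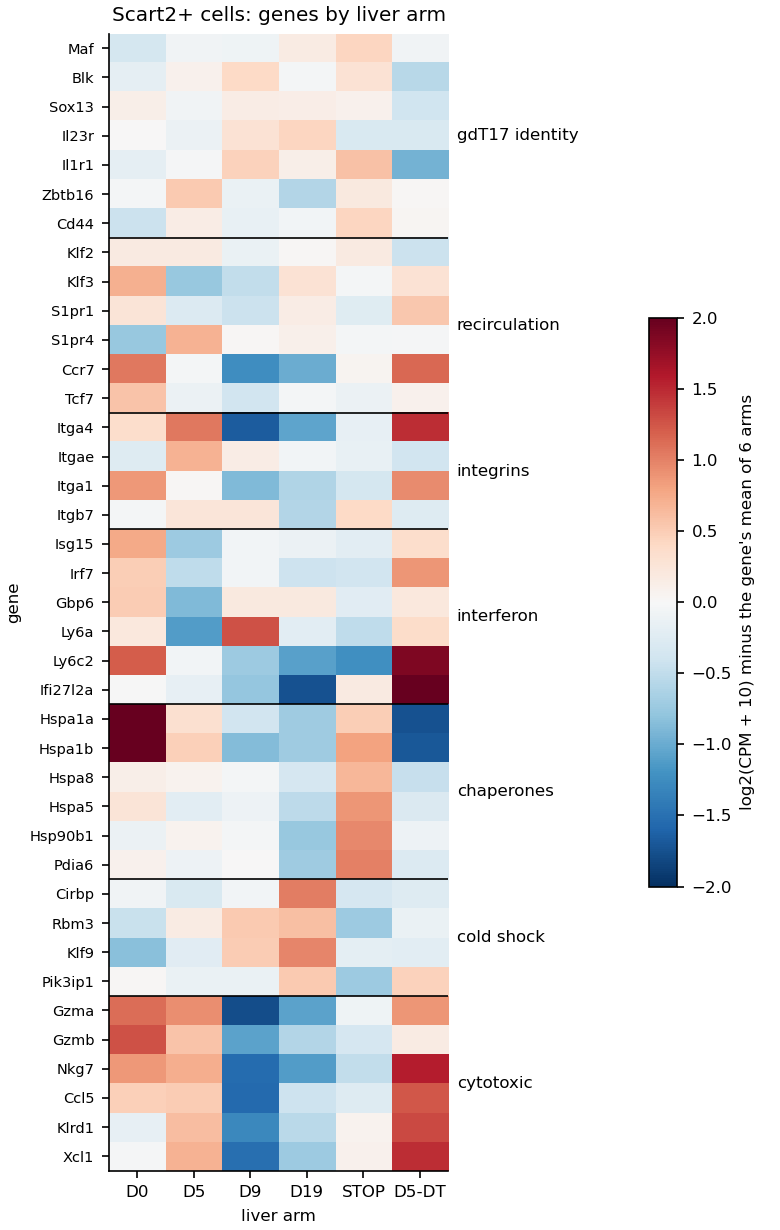
Genes of 7 groups in Scart2 cells by liver arm; colour is log2(CPM + 10) minus the gene's mean over the 6 arms, and colours stop at 2 in either direction. Hspa1a and Hspa1b were highest at D0 (251 and 406 CPM), Hspa5 and Hsp90b1 in STOP (1269 and 876 CPM), and Nkg7 of the cytotoxic group was lowest at D9.

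D5-DT was set against D5, which differed from it in genotype, toxin and pool. Of 7912 genes 323 were at least 2-fold higher (4.08%) and 80 at least 2-fold lower (1.01%). Il17a was 884 CPM at D5 and 445 in D5-DT, a change of -0.98 (interval of the plain log2 ratio -1.17 to -0.82), and it was -0.27 when the rule was applied after thinning and -0.59 in members with at least 2 UMIs of the Scart2 gene. Il17f went from 79.0 to 96.7 CPM with an interval that spans no change (-0.15 to 0.73). Areg went from 121 to 50.3 CPM. Scart1 cells changed by -0.22 for Il17a and 1.09 for Areg.

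Of 12 measured identity genes, 11 lay below 0 in D5-DT, but only 1 passed 2-fold (Kcnk1, a potassium channel gene, 135 CPM at D5 and 54.3 in D5-DT), with a median of -0.41 against 0.09 over all genes. Blk was 264 CPM at D5 and 165 in D5-DT, and Il1r1, a receptor that drives IL-17 production, 64.0 and 29.1. In members with at least 2 UMIs of the Scart2 gene Maf was 537 CPM at D5 and 614 in D5-DT, and Blk 287 and 205. With exactly 1 UMI Maf was 517 and 400 CPM and Blk 226 and 106. The part of other γδ cells inside the gate was not tested. Of 12 measured genes of recirculation 4 were 2-fold higher and none lower, with a median of 0.71. Ccr7 was 35.4 CPM at D5 and 92.7 in D5-DT, Klf3 96.7 and 211 and Bcl2 129 and 289. In Scart1 cells Ccr7 changed by -0.85 and Klf3 by -0.38. Markers of naive γδ cells were 2-fold higher for 5 of 6 genes, a list that shares Ccr7 and other genes, and their summed level was 189 CPM at D5 and 559 CPM in D5-DT. The free RNA of the pools held 145 and 379 CPM of the list, and Igfbp4 changed by -0.79 when the rule was applied after thinning; the part of naive-like cells and of free RNA was not tested. When the rule was applied after thinning, 1 of the 12 recirculation genes passed, with a median of 0.42.

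The interferon response list was higher in D5-DT for all 15 measured genes, and 9 of them passed 2-fold, with a median of 1.08. Ifi27l2a was 34.0 CPM at D5 and 271 in D5-DT, Ly6c2 53.8 and 232, Ly6a 91.2 and 271 and Isg15 21.1 and 55.6. Without the members that held a macrophage UMI, 7 of 14 passed and the median was 1.04; when the rule was applied after thinning, 3 of 14 passed and the median was 0.49. In the free RNA the interferon list summed to 1298 CPM in the D5 pool and 2082 CPM in the D5-DT pool, against 908 and 1889 CPM in members and 1090 and 1328 CPM in Scart1 cells, and the part of free RNA was not tested. Macrophage and neutrophil genes stood beside this: the summed level of the 8 myeloid markers was 1777 CPM in D5-DT and 39.8 to 141 CPM in the other arms, against 3172 CPM in the free RNA of the D5-DT pool and 989 CPM in that of the D5 pool, and 7 of the 8 were 2-fold higher, with Lyz2 at 6.8 CPM at D5 and 773 in D5-DT. Of the 584 Lyz2 UMIs 391 lay in 1 cell. Ifitm3, the largest rise among genes found in at least 10% of members, went from 14.3 to 347 CPM.

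Other genes were lower. Hspa1a and Hspa1b were at 70.8 and 136 CPM at D5 and at 9.3 and 22.5 CPM in D5-DT. Of 12 immediate early genes of the AP-1 group 11 lay below 0, among them Jun (739 and 412 CPM). None of the 12 passed 2-fold, and their median was -0.29 against 0.09 over all genes. Acsbg1 went from 252 to 50.3 CPM, Fabp5 from 80.3 to 19.9 and Itgae, the αE integrin chain that binds E-cadherin on epithelium, from 202 to 90.03. Fabp5 changed by 0.16 when the rule was applied after thinning. In Scart1 cells Acsbg1 changed by 0.16, Fabp5 by 0.33 and Itgae by 0.03. The depth of the members differed between these arms (median 3211 against 4431 UMIs), and its part in these changes was not tested.

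The members were then compared with Scart1 cells of the same livers, the only comparison with several arms on each side. UMIs were summed per arm and gate and tested with edgeR's quasi-likelihood test with the arm as a block, over 6 arms. The 5 genes of the rule were left out of the test, as were Ccr6, Tcrg-V4 and Trdv5, markers of the members. Of 8935 genes, 528 were higher in Scart2 cells (5.91%) and 478 lower (5.35%) at an adjusted p under 0.05 after Benjamini-Hochberg correction. Since members were shallower than Scart1 cells in 5 of the 6 arms, with the widest gap in D5-DT (3211 against 5574 UMIs), the test was repeated in cells of at least 3000 UMIs, where 759 genes passed, 694 of them among the 1006 above. Without D19 562 genes passed and without D9 669.

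Of 12 genes of recirculation tested between Scart2 and Scart1 cells 7 were higher and none lower, with a median of 0.64 against -0.0031 over all genes tested. Markers of naive γδ cells, a list that shares Ccr7 and other genes, moved with it, with 3 of 5 higher and a median of 1.47. The recirculation list summed to 4010 to 4524 CPM in naive-like cells, 1970 to 2847 in Scart2 and 1193 to 1768 in Scart1 cells over the 6 arms. Naive-like cells were chosen for a UMI of Ccr7, a gene of this list, so their sum is partly set by that choice. They numbered only 12 in STOP. The part of naive-like cells inside the gate was not tested. Klf2, the transcription factor that switches on egress receptors, averaged 725 CPM in Scart2 and 322 CPM in Scart1 cells (log2 fold change 1.26, SE 0.15, edgeR adjusted p = 3.13e-05) and was higher in 6 of 6 arms. S1pr1, the egress receptor itself, averaged 245 and 109 CPM (1.17, edgeR adjusted p = 3.44e-06), and Tcf7, a factor of memory and naive T cells, 294 and 121 CPM (1.32, edgeR adjusted p = 7.14e-07), both in 6 of 6 arms. Klf3, Ccr7, Foxo1 and Itgb7 were the other members past the threshold; Foxo1 lost its call in 1 of 13 alternatives. Itgb7 (edgeR adjusted p = 0.0438) lost it in 9 of 13.

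Homing receptors divided between the gates. Ccr9, the receptor of gut homing, averaged 73.6 CPM in Scart2 and 11.8 CPM in Scart1 cells (2.71, SE 0.19, edgeR adjusted p = 9.44e-08), and Ccr10, a receptor of skin homing, 35.4 and 10.8 CPM (1.82, edgeR adjusted p = 7.50e-04), higher in 5 of 6 arms. On the other side stood Cxcr6, the receptor of the liver sinusoid ligand CXCL16, with 493 and 948 CPM (-0.89, edgeR adjusted p = 8.17e-06), and inflammatory receptors, among them Ccr1, Ccr2, Cxcr3 and Ltb4r1. Ltb4r1 averaged 104 and 268 CPM (-1.23, edgeR adjusted p = 8.27e-06). Of 12 genes of tissue residency 3 were lower (Cxcr6, Cd69 and Prdm1) and none higher. Prdm1 lost its call in 4 of 13 alternatives and Ccr1 in 3 of the 8 in which it was tested.

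Of 12 genes of γδT17 identity, 9 were lower in Scart2 cells and 1 higher. Zbtb16, which encodes the innate-like factor PLZF, averaged 41.4 and 129 CPM (-1.64, SE 0.15, edgeR adjusted p = 2.15e-06), and Il1r1 averaged 69.4 and 190 CPM (-1.40, edgeR adjusted p = 7.14e-07). Maf, Blk and Il23r differed by -0.33, -0.52 and -0.43, while Il7r, the receptor of the survival cytokine IL-7, was higher (2105 and 1483 CPM, 0.57, adjusted p = 2.11e-05). Among the signalling genes of the T cell receptor complex Cd3d, Cd3e, Cd3g, Cd247, Zap70 and Cd6 were lower and Ptprc higher. Cd6 lost its call in 4 of 13 alternatives, Maf in 2 and Cd3e in 1.

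The cytokines split as well. Il17f was higher in Scart2 cells in 6 of 6 arms, with means of 134 and 42.1 CPM (1.92, SE 0.18, edgeR adjusted p = 1.99e-06), by 0.05 at D0 and by 1.05 to 2.40 in the other arms. Il17a was lower in 6 of 6 arms, with means of 1023 and 1814 CPM (-0.89, SE 0.22, adjusted p = 0.0136). The Il17a difference was -3.77 at D0 but -0.21 at D5 and -0.19 at D9, and between -0.97 and -1.24 at D19, in STOP and in D5-DT; it lost its call in 3 of 13 alternatives, with adjusted p up to 0.166. Areg (-1.82, edgeR adjusted p = 9.82e-05), Il22 (-1.26, edgeR adjusted p = 0.00787), Tnf and Ltb were also lower; Il22 lost its call in 1 of 13 alternatives.

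By size, the largest differences in favour of Scart2 cells were Plxdc2, a plexin domain gene (24.8 and 2.0 CPM, 3.09, SE 0.38, edgeR adjusted p = 3.71e-05), Ccr9, Fam169b, the tetraspanin Cd9 (59.7 and 13.4 CPM), Pkp4, Gm4258, Serp2, Tsc22d1, the factor Sox4, the adaptor Fyb (290 and 91.5 CPM), Il17f and App. The largest in favour of Scart1 cells were Clnk, an adaptor of immunoreceptor signalling (5.7 and 113 CPM, -4.26, SE 0.23, adjusted p = 6.61e-09), the lectin receptor Klrb1b (1.4 and 23.5 CPM), Tdrd9, Bcl2a1a, Hacd4, Pdcd1, which encodes PD-1 (49.3 and 290 CPM, -2.43, adjusted p = 6.24e-09), the prostaglandin synthase Ptgs2, Chad, Frmd4a, Slc15a3, Npnt and Fastkd3. Bcl2a1a has near-identical copies, so its count is uncertain. These 24 genes were chosen for the same direction in all 6 arms, and 19 of them were tested in all 13 alternatives and kept their call in each. The 5 others (Sox4, Chad, Gm4258, Plxdc2 and Ptgs2) had too few UMIs for some alternatives and kept their call in the 10 to 12 in which they were tested.

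Among the other lists, 5 of 14 glycolysis and hypoxia genes were lower in Scart2 cells, with Pkm at 220 and 316 CPM (-0.45), and 1 was higher, Hk2. Of 12 AP-1 genes 4 were higher and none lower, with Fos at 767 and 465 CPM (0.76), and of 15 interferon response genes 4 were higher and none lower, led by Ly6a at 240 and 93.7 CPM (1.38). Of 5 markers of naive γδ cells tested 3 were higher: Ccr9, Ccr7 and Igfbp4 (28.4 and 6.6 CPM, 1.77). Of 10 cytotoxic and γδT1 genes 1 was lower (Tbx21), and none of 3 myeloid genes tested passed in either direction. Several of these calls were not firm: Slc2a3, a glucose transporter gene of the glycolysis list, lost its call in 9 of 13 alternatives, Tpi1 in 3 and Tbx21 in 5, and of the 4 interferon genes Ifi27l2a lost it in 7, Gbp2 in 2 and Ifi203 in 1, while Ly6a kept it in all 13.

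**Figure D5:**
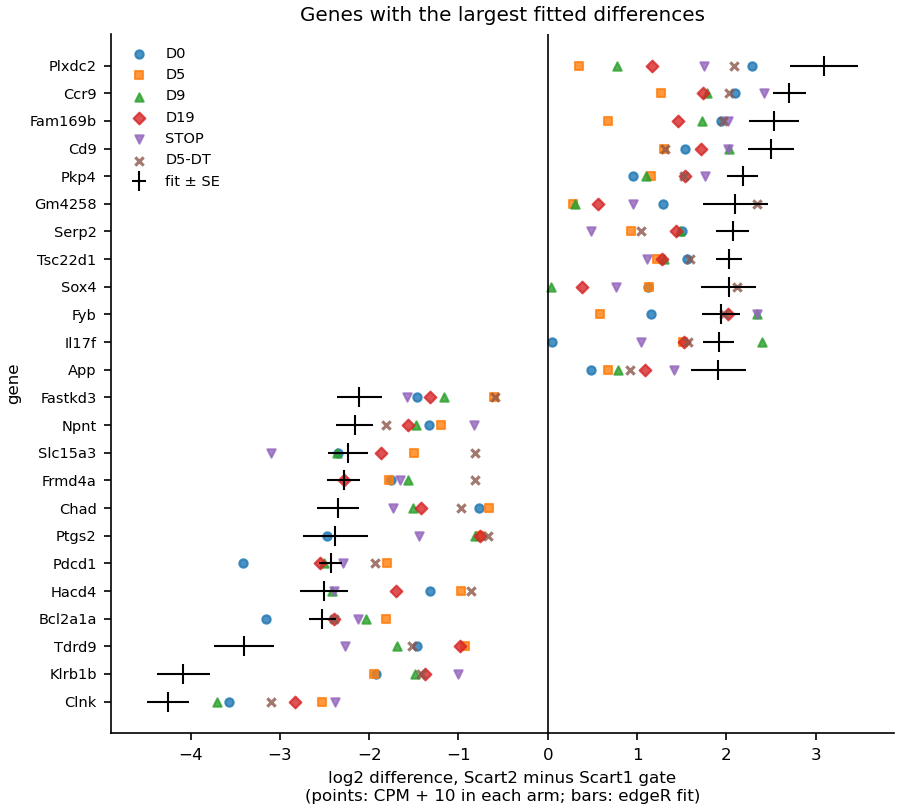
Log2 difference between Scart2 and Scart1 cells for the 12 genes with the largest positive and the 12 with the largest negative fitted change; points show each of the 6 liver arms on the log2(CPM + 10) scale and black bars the edgeR fit with its SE. Points lie on 1 side of 0 for all 24 genes, as the choice required, from Plxdc2 at 3.09 to Clnk at -4.26.

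Members were also split by a UMI of a second gene within each arm. Members with a Cd69 UMI, an early activation gene, held more Il17a than members without in 6 of 6 arms (mean log2 difference 0.99, SD 0.50) and more Il17f (0.74, SD 0.58). Members with a Ccr6 UMI held more Blk (0.65, SD 0.51) in 6 of 6 arms. Members with an Il23r UMI held more Il17f (0.74, SD 0.84) in 6 of 6 arms. They held less Klf2 (-0.17, SD 0.067) and less Nkg7 (-1.59, SD 1.84) in 6 of 6 arms. Each of these exact two-sided sign-flip permutation tests gave p = 0.031, the smallest that 6 arms allow, and 0.0977 after adjustment over the 25 splits, so none passed. Il17a was higher with a Ccr6 UMI in only 1 of 6 arms (mean log2 difference -0.37, SD 0.43). The same exact sign-flip test gave p = 0.125 for it, and 0.240 after adjustment. Depth moved with some splits: members with a Cd69 UMI were deeper by the median in 6 of 6 arms. Those with an Il23r UMI were deeper in 5 of 6 arms and those with a Ccr6 UMI in 2 of 6.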

How the data were processed

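The deposited counts were UMIs per gene and cell barcode, which the authors made from droplet 3′ libraries with hashtag feature barcoding; the file headers give Cell Ranger version 4 and the submitters' processing notes the mouse build mm10. The 3 libraries with liver γδ T cells held 58079090, 38405348 and 34142354 UMIs. Cells were kept at 1000 UMIs, 500 genes and at most 10% mitochondrial UMIs, and assigned to an arm where the top hashtag had at least 10 UMIs and 3 times the next. Doublets with mixed hashtags were thus left out; Scrublet marked 6.42%, 6.98% and 2.69% of cells, which were removed only as an alternative. Libraries of lymph node cells were not part of the comparisons.

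UMIs were summed per arm and scaled to CPM. Levels have exact Poisson intervals, shares Clopper-Pearson intervals and ratios exact conditional intervals (95%, counting error only); PCR copies were removed by UMI, but cells of 1 arm are not replicates. Between arms a gene with at least 20 UMIs over both counted as changed at 2-fold of log2(CPM + 10), and a level of 0 was bounded by 3 counts. Free RNA was read from barcodes of at most 100 UMIs, and its share in members was bounded by the summed level of the listed cytotoxic genes. Scart2 and Scart1 cells were compared with edgeR 4.0.16 in R 4.3.3 (quasi-likelihood, arm as block, Benjamini-Hochberg adjustment, threshold 0.05), tested on simulated data first, with DESeq2 1.42.0 as an alternative. Python 3.11.15, numpy 2.4.6, scipy 1.17.1, pandas 2.3.3 and scanpy 1.11.5 were used. The other alternatives were the depth, mitochondrial, hashtag and doublet filters, thinning before the rule, a stricter rule, free RNA, the added CPM, the scaling and leaving out each arm.

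Genes were named as those of the rule and its markers; per list those with separate intervals, up to 4 each way, and all T17 cytokines; per comparison the 8 largest rises and falls among genes found in 10% of the higher arm's members with no cell over 25% of the UMIs; and for Scart1 the 12 largest each way with 1 direction in all arms and 20 CPM. Other named genes (Epcam, Krt19, Lyz2) were chosen after their values were seen. The members and the 27 gene lists were chosen with earlier results of these data known. A few genes of the lists are not reported here by name.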

Additional observations from a re-analysis of the deposited data

Results flagged for a closer look

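Lymph node γδ T cell sorts of the same series were not used in the comparisons. Among their hashtagged cells 8.07% met the same rule at D5 (832 of 10314) and 9.87% in STOP (77 of 780). Both shares lay above the upper limit of 5.92% at D0 (4.74%, 73 of 1540). D0 and D5 shared a pool, D19 and STOP another, and D5-DT lay in a separate pool. Between these pools, condition and pool cannot be told apart. The shares were 7.16% in D5-DT and 5.96% at D19, with intervals (5.69% to 8.87% and 4.42% to 7.85%) that reached below that limit. Il17a in these lymph node cells was at 0 at D0, 86.9 CPM at D5, 162 at D19, 299 in STOP and 102 in D5-DT.

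The Il17a difference between Scart2 and Scart1 cells was -3.77 at D0, apart from the 5 other arms, which lay between -1.24 and -0.19. Such an outlier turns up by chance in about 1 of 20 groups. Il17a and the 24 genes with the largest differences were all checked, so an outlier among them can arise by chance. The D0 value rests on 10 UMIs in 46 members.

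In 5 cases a cytokine gene moved one way in Scart2 cells and the other way in Scart1 cells, and none of these differences was tested. Areg changed by 2.51 from D0 to D5 in Scart2 cells (3 UMIs at D0) and by -0.25 in Scart1 cells, by -0.62 and 0.33 from D5 to D9, and by -1.12 and 1.09 from D5 to D5-DT. Ifng changed by 0.72 and -1.68 from D5 to D9. Tnfsf11, the gene of RANKL, changed by 0.80 and -0.41 from D5 to D5-DT, with intervals of the 2 arms that overlapped in both gates.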

How the results depend on the processing

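The share of members moved with the depth at which the rule was read. It was 3.16% at D0, 4.91% at D5, 8.81% at D9, 8.03% at D19, 7.29% in STOP and 6.00% in D5-DT after thinning to 1000 UMIs, and 4.02%, 4.63%, 12.0%, 6.21%, 6.06% and 5.36% with at least 2 UMIs of 5830411N06Rik. In cells of at least 3000 UMIs, a limit chosen after seeing the data, it was 5.92% at D19, 7.97% in STOP and 5.95% in D5-DT. With at most 5% mitochondrial UMIs it was 10.5% at D19 and 6.03% in D5-DT, and with at least 1500 UMIs 7.27% in D5-DT.

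The Il17a change from D0 to D5 was 0.28 after thinning. With free RNA subtracted it came to 6.59, but the amount subtracted at D0 exceeded the members' whole Il17a level there. The D0 side then held only the added CPM, so the size of 6.59 follows from the construction and does not estimate the change. The Il17a change from D5 to D9 was 1.40 with 2 UMIs of 5830411N06Rik. STOP against D19 was 0.028 at 3000 UMIs, 0.63 with free RNA subtracted, 0.65 as a mean over cells and reversed to -0.073 in members with a UMI of a further γδT17 marker (Ccr6, Tcrg-V4 or 1 other gene). D5-DT against D5 was -0.27 after thinning, -0.59 with 2 UMIs and -0.48 with a UMI of a further γδT17 marker.

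Genes past 2-fold between D0 and D5 numbered 448 as reported, 1005 with 1 CPM added, 204 at 50 UMIs and 798 with free RNA subtracted. From D5 to D9 the 115 became 366 with 1 CPM, 75 at 50 UMIs and 73 with a UMI of a further γδT17 marker. The 215 of STOP against D19 became 792, 142 at 50 UMIs and 589 with free RNA subtracted, and the 403 of D5-DT against D5 became 883, 225 and 704. Between Scart2 and Scart1 cells the 1006 genes ranged from 562 to 1163 when an arm was left out (562 without D19, 669 without D9), and DESeq2 called 805, of which 790 were shared. Of 109 named or listed genes past the threshold, 98 were tested in all 13 alternatives and 74 of these kept their call in each; 8 of the 11 others kept it wherever they were tested.

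Single genes reversed as follows. From D0 to D5, Ly6c2 was 1.08 and Rbpms2 0.18 after thinning; with a UMI of a further γδT17 marker, Ly6c2 and Ccr9 were 1.47 and 0.27 and Epcam -0.26; with 2 UMIs, Ly6c2 was 1.47 and Igfbp4 0.27. From D5 to D9, Fcer1g was 0.57 and Gzmb 0.85 with free RNA subtracted, where the subtracted share was set by the cytotoxic list to which Gzmb belongs, so that its sign there follows from the construction; Egr1 was 0.0063, Epcam 0.30 and Krt19 0.094 with a UMI of a further γδT17 marker, and Epcam 0.14 and Krt19 0.069 without macrophage UMIs. In STOP against D19, Klra7 was -0.74 and S100a8 -0.10 after thinning and Hspa1a -0.33 at 3000 UMIs. In D5-DT against D5, Epcam was 0.22, Fabp5 0.16 and Igfbp4 -0.79 after thinning, and Epcam 1.31 with a UMI of a further γδT17 marker and 1.09 without macrophage UMIs. Stmn1 was -0.025 between Scart2 and Scart1 cells after thinning. The cause of these changes was not tested. No paired analysis was possible because each condition was 1 hashtag arm with no replicate number; this concerns comparisons between conditions, and the Scart2 against Scart1 test had the arm as a block. With 46 members at D0, a gene without UMIs there is bounded at 13.0 CPM, against 1.45 CPM at D9.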
